A study of Rattus norvegicus with 30 samples.

Results

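The genes described here are 44 genes of the folding and secretion machinery of the endoplasmic reticulum (ER) in rat plantaris tendons that were cut and repaired. They were taken from a list and sorted by role into collagen folding (10 genes), chaperones and foldases (14), stress regulators and ER-associated degradation (8), and translocation and transport (12). The list was chosen with earlier results of these data known, so an excess over the share of all genes is not independent support. Of the 44 genes, 42 had a row among the 13124 genes of the count table, and all 42 passed the filter on low counts, so 42 of 12558 tested genes are described. Crtap (collagen folding) and Mia3 (translocation and transport) were not analysed here. RNA sequencing was performed on 30 plantaris tendons of male Sprague Dawley rats, 3 months old. In repaired animals both plantaris tendons underwent a full-thickness tenotomy with immediate suture repair, and the animals received GSK2894631A, an inhibitor of hematopoietic prostaglandin D synthase, by oral gavage 2 times daily at 0 (vehicle), 2 or 6 mg/kg until tendons were collected at 7 days (7D) or 21 days (21D). The groups were control (n = 3), 7D 0 mg/kg (n = 5), 7D 2 mg/kg (n = 4), 7D 6 mg/kg (n = 3), 21D 0 mg/kg (n = 5), 21D 2 mg/kg (n = 5) and 21D 6 mg/kg (n = 5). Control animals had neither surgery nor compound, so the effects of cutting, suture and vehicle cannot be told apart. RNA came from the right tendon of each animal, cut away from the muscle end.

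Tendon fibroblasts secrete fibrillar collagen in bulk. Its chains enter the ER through the SEC61 translocon, are hydroxylated on proline and lysine, are folded into a triple helix with the help of the collagen chaperone HSP47 (gene Serpinh1) and peptidyl-prolyl isomerases, and leave the ER in COPII carriers. Another set of ER proteins, led by the HSP70-type chaperone BiP (gene Hspa5), folds secreted proteins of every kind. When unfolded protein builds up, the sensors IRE1, PERK and ATF6 raise chaperones and degradation factors through the transcription factors XBP1, ATF4 and ATF6. This is the unfolded protein response.

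Libraries held 12405741 to 49909374 counts on genes, a depth at which all 42 genes were detected in all 30 tendons. Control tendons differed from repaired tendons in make-up. Genes of skeletal muscle (24 of 29 listed markers were measured) took 18.25% to 26.06% of counts in the 3 controls, 0.00837% to 1.21% in 7D tendons and 0.0631% to 9.23% in 21D tendons, although tendons had been cut away from the muscle. Tendon fibroblast genes (11 of 12 measured) took 0.880% to 3.95% of counts in controls and 6.18% to 12.29% in repaired tendons, and macrophage genes (13 of 13) 0.0323% to 0.172% against 0.199% to 0.945%. Plasma cell genes (4 of 6), which belong to a cell type rich in ER, took 0.00182% to 0.00652% against 0.00561% to 0.0269%, and endothelial genes (6 of 7) 0.0132% to 0.0395% against 0.0265% to 0.0944%. T and B lymphocyte genes (7 of 8) took 0.000103% to 0.000417% against 0.000949% to 0.00947%, with Ms4a1 at 0 in all tendons of 1 group. Control replicate 4 had the highest muscle share (26.06%) and the lowest fibroblast share (0.880%) of the controls, so counts against control, and the values of several genes, are also given without it. The 42 genes together took 0.360% to 0.555% of counts in control tendons and 0.938% to 1.509% in repaired tendons, and these ranges did not overlap. All these shares are of counts not scaled between libraries. The fibroblast share is weighted to collagen transcripts and cannot be read as a number of fibroblasts. Of the same list, Mkx, Fmod and Tnmd were lower in every 7D 0 mg/kg tendon than in any control, with levels given further below. With library size alone, the median log2 fold change of all genes against control was itself 0.508 to 0.641. In whole tendon, a change in the number of cells of a type and a change in RNA per cell cannot be told apart, and the part that these shares have in the results below was not tested beyond the values given.

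Promoters were searched for the motifs through which the unfolded protein response acts. RefSeq windows (assembly GRCr8) from 250 bases before to 50 bases after the gene start were given for 34 of the 42 genes, and Fkbp10, Pdia3, Pdia6, Manf, Atf6, Sec61a1, Sec24d and Kdelr2 had no window. The ER stress response element ERSE (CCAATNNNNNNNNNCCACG, on either strand), to which ATF6 and XBP1 bind with the factor NF-Y, was present in 7 of the 34 windows (Hspa5, Hsp90b1, Calr, Canx, Dnajc3, Creld2 and Xbp1), and in 0.0765% of the 27457 genes with a window (21 genes). ERSE-II (ATTGGNCCACG) was present in Dnajb11, Hyou1 and Herpud1, and in 0.0619% of all genes (17 genes). The XBP1 element UPRE (TGACGTGG) was present in Hyou1, Sec23a and Kdelr3 (0.681% of all genes, 187 genes), and in Hyou1 it overlaps an ERSE-II. An amino acid response element (TGATGCAA), the kind of site ATF4 uses, was found in Herpud1 among the 34 (0.827% of all genes, 227 genes). A match is a run of letters and not a shown binding site. The windows of the 10 genes with an ERSE or ERSE-II are printed because their genes moved in both directions in the tendons. Motifs are in capitals, and sequences run 5′ to 3′ on the gene's strand. For Canx and Herpud1 the RefSeq gene reaches upstream of the start used here.
Hspa5, ERSE, the 250 bases before the start, chr3:38452766-38453015 (plus strand): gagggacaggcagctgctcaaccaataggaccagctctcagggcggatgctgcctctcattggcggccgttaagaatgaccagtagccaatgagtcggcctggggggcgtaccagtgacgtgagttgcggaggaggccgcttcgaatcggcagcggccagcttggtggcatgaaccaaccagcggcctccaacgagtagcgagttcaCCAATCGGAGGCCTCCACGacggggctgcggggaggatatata
Hsp90b1, upstream ERSE, chr7:23012436-23012484 (minus strand): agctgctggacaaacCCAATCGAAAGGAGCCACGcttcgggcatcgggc
Hsp90b1, downstream ERSE on the other strand, chr7:23012332-23012380 (minus strand): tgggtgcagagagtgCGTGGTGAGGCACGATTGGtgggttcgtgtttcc
Calr, ERSE on the other strand, chr19:40213120-40213168 (plus strand): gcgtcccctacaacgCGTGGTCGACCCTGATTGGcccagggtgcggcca
Canx, ERSE, chr10:35158054-35158102 (minus strand): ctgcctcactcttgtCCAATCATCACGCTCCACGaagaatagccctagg
Dnajc3, ERSE, chr15:102432519-102432567 (plus strand): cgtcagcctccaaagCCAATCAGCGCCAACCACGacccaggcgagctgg
Creld2, ERSE on the other strand, chr7:121789224-121789272 (plus strand): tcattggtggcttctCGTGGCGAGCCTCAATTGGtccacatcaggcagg
Xbp1, ERSE, chr14:84604543-84604591 (plus strand): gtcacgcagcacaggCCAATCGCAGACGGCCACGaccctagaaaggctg
Dnajb11, ERSE-II, chr11:91672791-91672825 (minus strand): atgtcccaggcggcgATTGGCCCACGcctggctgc
Hyou1, UPRE overlapping an ERSE-II on the other strand, chr8:53602676-53602719 (plus strand): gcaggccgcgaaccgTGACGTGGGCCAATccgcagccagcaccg
Hyou1, further ERSE-II on the other strand, chr8:53602779-53602819 (plus strand): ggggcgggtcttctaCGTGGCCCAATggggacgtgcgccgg
Herpud1, amino acid response element on the other strand, chr19:10614875-10614900 (minus strand): cacggcgggTTGCATCAgcccgcacc
Herpud1, ERSE-II, chr19:10614812-10614840 (minus strand): cgggcgctgATTGGGCCACGttgggcact

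Repaired tendons held more transcript of most of these genes than control tendons. In the 7D 0 mg/kg group 31 of 42 genes were higher than in control and 4 were lower, where 35.8% of all tested genes were higher and 35.6% lower. The median log2 fold change was 0.92 over the 42 genes and 0.0481 over all genes. The 7D 2 mg/kg group had 32 higher and 5 lower (35.8% and 34% of all genes), and the 7D 6 mg/kg group 29 higher and 4 lower (34.1% and 33.8%). At 21 days 30 genes were higher in each group. The number lower was 3 at 0 mg/kg (32.2% of all genes higher and 33.7% lower), 4 at 2 mg/kg (33.8% and 35.3%) and 2 in the group at 6 mg/kg (30.8% and 33.3%). Medians in the order of the groups were 0.92, 1.03, 0.89, 0.73, 0.76 and 0.73, against 0.0481, 0.0548, 0.0437, 0.0292, 0.0142 and 0.0073 for all genes. These calls are from edgeR's quasi-likelihood test at a Benjamini-Hochberg adjusted p under 0.05 over all 12558 genes, and the 6 comparisons share the same 3 control tendons. In all 6 comparisons 27 genes were higher and 2, Herpud1 and Atf4, were lower, though with library size alone Atf4 changed sign in 7D 2 mg/kg and the 3 groups at 21 days. The share of all genes called in 1 direction in all 6 is not given here, so these 2 counts have no background beside them. In none of the 6 comparisons were P4ha1, Xbp1, Atf6, Sel1l and Sec61g called. Hspa5 and Dnajb11 were higher in 5 groups, Hyou1 and Ssr3 in 4 and Dnajc3 in 2, while Dnajb9 was lower in 5, Ddit3 in 4 and Sec23a in 1, with signs that turned under library size alone for Dnajb9 in 7D 2 mg/kg (0.13) and 21D 0 mg/kg (0.13), for Ddit3 in 21D 2 mg/kg (0.05) and for Sec23a in 7D 2 mg/kg (0.13).

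**Figure D1:**
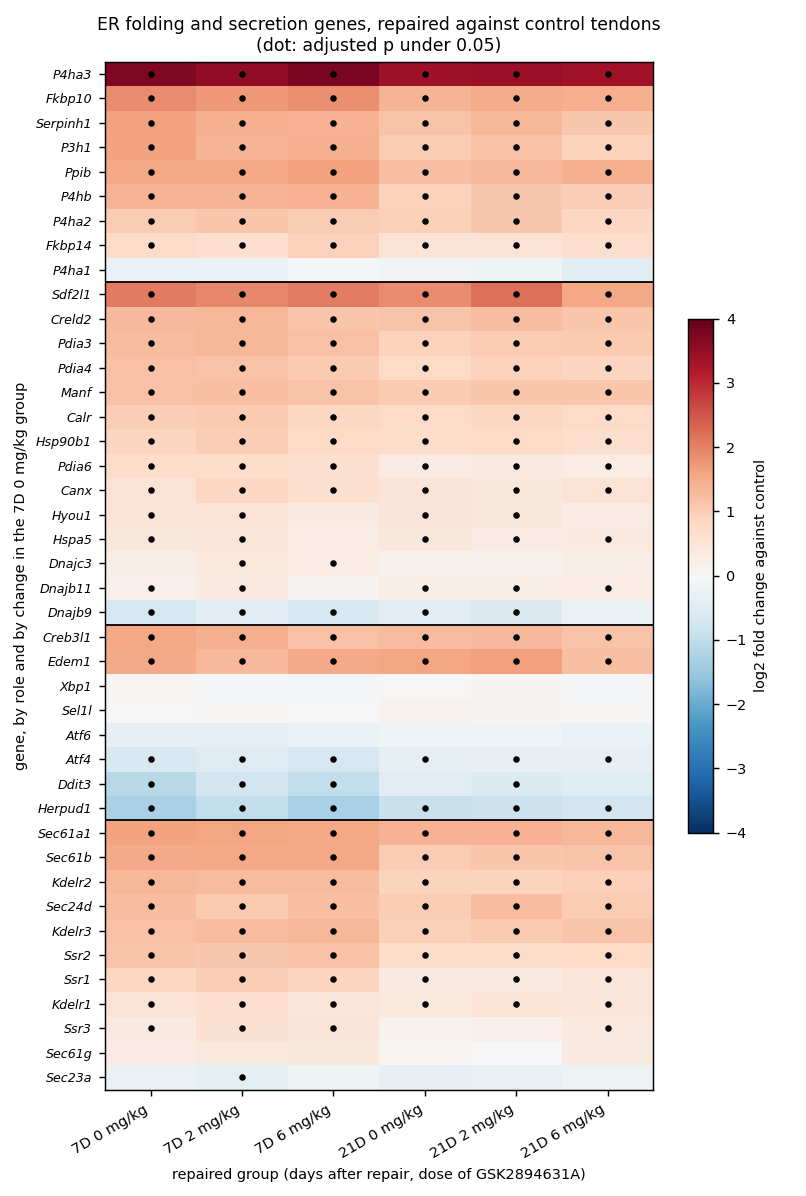
Log2 fold change of each of the 42 genes (rows, by role) in each of the 6 repaired groups (columns) against the 3 control tendons, with a dot where the adjusted p was under 0.05. Most rows of collagen folding, chaperones and transport are higher in every column, while Herpud1 is lower in every column, as is Atf4, whose sign turned in 4 of them with library size alone.

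The calls changed with the controls and the scale. Without control replicate 4 the counts of higher and lower genes were 31 and 6, 31 and 5, 29 and 4, 27 and 4, 26 and 4, and 29 and 3 in the same order of groups. These were not all the same genes, since without that control Atf4 was no longer called in any 21D group, nor Ddit3 in 7D 2, 7D 6 or 21D 2 mg/kg. Among the rises, log2 fold changes at 7 days with 0 mg/kg were, without it, 1.41 (Serpinh1), 1.53 (Fkbp10), 1.40 (P3h1), 1.95 (Sdf2l1), 1.36 (Sec61a1) and 1.08 (Kdelr2), each of them still called there and in 21D 0 mg/kg. With the muscle share of each tendon as a covariate, a fit added after the data were seen, the counts were 26 and 5, 9 and 1, 10 and 0, 25 and 1, 25 and 2, and 27 and 2. Counts over all genes under this fit are not given here. Muscle shares of control and repaired tendons did not overlap, so this fit cannot tell muscle share and repair apart. Under it the medians of the 42 genes were 0.71, 0.54, 0.46, 0.55, 0.63 and 0.63, against -0.102 to -0.0195 over all genes. In each group 32 to 34 of the 42 lay above the median of all genes. Scaling by library size alone, in place of trimmed mean of M-values (TMM) factors of 0.599 to 0.788 in controls and 0.950 to 1.095 in repaired tendons, moved the median of all genes to between 0.508 and 0.641. The share of higher genes among all called genes then went from 48% to 51.3% up to 74.1% to 77.9%, and 35, 35, 35, 35, 35 and 36 of the 42 genes were higher with 1, 1, 1, 1, 1 and 0 lower. Relative to the median of all genes, 33 to 35 of the 42 genes lay above it in each group under TMM scaling and 33 to 35 under library size alone.

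Of the collagen folding genes, 8 of 9 measured rose in each of the 6 groups and none fell, with a median change on the log2 scale of 1.55 in 7D 0 mg/kg tendons and 1.02 in 21D 0 mg/kg tendons. Prolyl 4-hydroxylases hydroxylate proline in the collagen chain, which stabilises the helix, and P4ha3 encodes 1 of their catalytic subunits. P4ha3 had 9.91, 6.98 and 2.53 counts per 1000000 (CPM, after TMM scaling) in control tendons 2, 3 and 4. It had 65.4, 102, 89.3, 109.5 and 74.2 CPM in the 5 tendons of 7D 0 mg/kg, and 62.5, 61.9, 107, 50.5 and 63.9 CPM in those of 21D 0 mg/kg. Every repaired tendon, at 47.4 to 109.5 CPM over the 27, was above every control tendon, and replicate 3 of 21D 0 mg/kg stood above the other 4 of its group. The log2 fold change was 3.74 ± 0.34 (SE, adjusted p = 1.20e-09) at 7 days, a 13.4-fold difference, and 3.39 ± 0.33 (SE, adjusted p = 1.17e-08) at 21 days. It was the largest change among the 42 genes in the 6 groups, and without control replicate 4, the lowest of the controls, it was 3.33 at 7 days.

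Of the other catalytic subunits of the hydroxylase, P4ha2 was called and P4ha1 was not. P4ha2 rose, with 60.6, 77.2 and 42.4 CPM in controls and a log2 fold change of 1.02 ± 0.18 (SE, adjusted p = 2.90e-05) in 7D 0 mg/kg. P4ha1 had 173, 103 and 94.4 CPM in controls, 105, 99.3, 102, 94.7 and 119 CPM in 0 mg/kg tendons at 7 days and 63.4, 209, 106, 107 and 88.3 CPM at 21 days. These ranges overlapped, and the log2 fold change of P4ha1 was -0.25 ± 0.25 (SE, adjusted p = 0.382) at 7 days, with a 95% interval of -0.76 to 0.27. It was 0.33 with library size alone and -0.89 (adjusted p = 0.0130, edgeR) with the muscle covariate. P4hb, which encodes the beta subunit shared by these enzymes and is itself a disulfide isomerase, rose 2.59-fold at 7 days, a log2 fold change of 1.37 ± 0.13 (SE, adjusted p = 2.67e-09).

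Serpinh1, the collagen-specific chaperone HSP47, had 764, 629 and 471 CPM in the 3 controls. In 7D 0 mg/kg it had 1525, 1881, 2216, 2014 and 1977 CPM and in 21D 0 mg/kg 1057, 1289, 1918, 1362 and 1197 CPM. All 27 repaired tendons (1057 to 2216 CPM) lay above the highest control. The log2 fold changes of Serpinh1 were 1.63 ± 0.19 (SE, adjusted p = 5.56e-08) and 1.13 ± 0.19 (SE, adjusted p = 1.14e-05). Fkbp10, a prolyl isomerase that acts on procollagen, had 177, 126 and 62.4 CPM in controls, 350, 451, 514, 513 and 446 CPM in 0 mg/kg tendons at 7 days and 270.3, 296, 392, 324 and 271 CPM at 21 days. Its groups did not overlap either, and it rose by a log2 fold change of 1.90 ± 0.25 (SE, adjusted p = 2.82e-07) and 1.35 ± 0.24 (SE, adjusted p = 3.23e-05). P3h1, the prolyl 3-hydroxylase, rose by 1.61 ± 0.20 (SE, adjusted p = 1.11e-07) and 1.02 ± 0.19 (SE, adjusted p = 6.00e-05), and Ppib (cyclophilin B), its partner, by 1.55 ± 0.14 (SE, adjusted p = 8.55e-10) and 1.20 ± 0.13 (SE, adjusted p = 6.95e-08). Fkbp14 was the smallest rise of the 8 at 0 mg/kg, at 0.77 ± 0.19 (SE, adjusted p = 0.00109) and 0.53 ± 0.19 (SE, adjusted p = 0.0175), and without control replicate 4 it was not called in 7D 2 mg/kg or in any 21D group (log2 fold change 0.21 in 21D 0 mg/kg).

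Most of the general chaperones and foldases rose too. Of 14 genes, 12, 13, 10, 12, 12 and 11 rose in the 6 groups, and 1, Dnajb9, fell in every group but 21D 6 mg/kg, a fall that depended on the scaling. The median log2 fold change was 0.80 in 7D 0 mg/kg tendons and 0.63 in 21D 0 mg/kg tendons, against 1.55 and 1.02 for collagen folding, a difference that was not tested. Hspa5 (BiP), a common readout of ER stress, had 383, 413 and 396 CPM in controls, 544, 596, 584, 527 and 494 CPM in 0 mg/kg tendons at 7 days and 419, 527, 678, 538 and 527 CPM at 21 days. The rise was small, 0.47 ± 0.14 (SE, adjusted p = 0.00419) and 0.44 ± 0.14 (SE, adjusted p = 0.00762) on the log2 scale, or 1.38-fold at 7 days. In 7D 6 mg/kg the value for Hspa5 was 0.28 ± 0.15 (SE, adjusted p = 0.105). Without control replicate 4, Hspa5 was no longer called in 21D 2 mg/kg (adjusted p = 0.159, edgeR) or in 21D 6 mg/kg (0.0794). The call of Hspa5 in 21D 0 mg/kg was lost without control replicate 2 (0.35, adjusted p = 0.0669, edgeR), and that in 21D 2 mg/kg was lost in 6 of the 8 fits that each left out 1 tendon.

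Sdf2l1, which keeps BiP clients soluble in a complex with DNAJB11, changed most in this set. It had 14.6, 12.9 and 11.9 CPM in controls, 57.5, 43.3, 64.1, 53.7 and 56.5 CPM in 0 mg/kg tendons at 7 days and 28.6, 60.4, 53.3, 46.3 and 53.7 CPM at 21 days. All 27 repaired tendons were above the controls, and the log2 fold changes of Sdf2l1 were 2.07 ± 0.23 (SE, adjusted p = 3.40e-08) and 1.88 ± 0.23 (SE, adjusted p = 2.57e-07). Its partner Dnajb11 was at 0.21 ± 0.09 (SE, adjusted p = 0.0429) and 0.24 ± 0.09 (SE, adjusted p = 0.0235), with tendons that overlapped the controls. Leaving out control replicate 2 brought Dnajb11 in 7D 0 mg/kg to 0.09 (adjusted p = 0.447, edgeR) and in 21D 0 mg/kg to 0.13 (adjusted p = 0.287), and the calls were lost in 5 and 3 of the 8 fits that each left out 1 tendon. Creld2, a disulfide isomerase-like protein induced by ER stress, had 15.4, 16.6 and 12.2 CPM in controls, 36.7, 39.8, 41.3, 32.5 and 32.4 CPM in 0 mg/kg tendons at 7 days and 26.4, 31.3, 42.6, 33.3 and 29.4 CPM at 21 days. Creld2 rose by 1.30 ± 0.14 (SE, adjusted p = 1.48e-08) and 1.14 ± 0.14 (SE, adjusted p = 2.20e-07).

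Pdia3, a disulfide isomerase that works on glycoproteins together with calnexin and calreticulin, had 353, 317 and 245 CPM in controls, 739.5, 749, 820.3, 663 and 661 CPM in 0 mg/kg tendons at 7 days and 478, 649, 646, 562 and 573 CPM at 21 days. Pdia3 rose by 1.25 ± 0.13 (SE, adjusted p = 7.14e-09) and 0.93 ± 0.13 (SE, adjusted p = 8.84e-07), without overlap. The lectin chaperones rose as well, Calr by 0.98 and Canx by 0.57 at 7 days in 0 mg/kg tendons, as did Pdia4 (1.17), Manf (1.16), Hsp90b1 (0.85) and Pdia6 (0.75). Hyou1, the exchange factor of BiP, rose by 0.55 ± 0.15 (SE, adjusted p = 0.00272) at 7 days, but without control replicate 4 its adjusted p was 0.0634 (edgeR). Dnajc3, a co-chaperone that also restrains PERK, had a log2 fold change of 0.26 ± 0.12 (SE, adjusted p = 0.0504) and was called in the 7-day groups at 2 and 6 mg/kg, in neither of them without control replicate 4.

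Dnajb9 (ERdj4), a BiP co-chaperone that represses IRE1, was the member of this set that fell. It had 72.9, 69.4 and 96.4 CPM in controls, 56.5, 52.7, 46.4, 46.4 and 44.1 CPM in 0 mg/kg tendons at 7 days and 62.7, 48.8, 60.1, 54.4 and 65.5 CPM at 21 days. Of the 27 repaired tendons, 25 lay below the lowest control. The log2 fold change of Dnajb9 was -0.69 ± 0.12 (SE, adjusted p = 1.20e-05) at 7 days and -0.45 ± 0.12 (SE, adjusted p = 0.00182) at 21 days, but with library size alone it was -0.07 and, with the opposite sign, 0.13.

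The regulators of ER stress and the degradation genes did not share a direction. In 7D 0 mg/kg tendons 25% of them were higher and 37.5% lower, near the 35.8% and 35.6% of all genes. Of 8 genes, Creb3l1 and Edem1 rose in all 6 groups, Herpud1 fell in all 6 with TMM scaling and kept its sign in all 6 with library size alone, Atf4 (6 groups) and Ddit3 (4 groups) fell with TMM scaling but changed sign in some of these groups with library size alone, and Xbp1, Atf6 and Sel1l were not called. The median log2 fold change was -0.15 in 7D 0 mg/kg tendons and -0.09 in 21D 0 mg/kg tendons. Creb3l1 (OASIS) is a membrane-bound transcription factor of matrix-producing cells that acts on type I collagen genes. It had 66.5, 68.5 and 14.0 CPM in controls, 100.4, 166, 172, 147 and 146 CPM in 0 mg/kg tendons at 7 days and 110.4, 111, 149.8, 137 and 84.5 CPM at 21 days. All repaired tendons exceeded the controls, of which replicate 4 was far below the other two. Creb3l1 rose by 1.55 ± 0.32 (SE, adjusted p = 1.26e-04) and 1.25 ± 0.31 (SE, adjusted p = 0.00123), and without control replicate 4 by 1.06 and 0.76.

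Edem1, a lectin that hands misfolded glycoproteins to degradation, had 52.2, 40.5 and 12.3 CPM in controls, 105, 92.2, 102, 86.8 and 121 CPM in 0 mg/kg tendons at 7 days and 57.4, 178, 100.2, 98.3 and 87.5 CPM at 21 days. Control replicate 4 was again the lowest, and without it Edem1 was at 1.07 and 1.12, still called. Edem1 rose by 1.53 ± 0.34 (SE, adjusted p = 3.32e-04) and 1.57 ± 0.34 (SE, adjusted p = 3.26e-04). With the muscle covariate the 7-day value was 0.70 (adjusted p = 0.124, edgeR), and in the 7-day groups at 2 and 6 mg/kg it changed sign, to -0.37 and -0.13.

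Herpud1 went the other way. HERPUD1 is a membrane protein of the degradation complex, and its promoter window holds both an ERSE-II and an amino acid response element (printed above). Herpud1 had 221, 190 and 283 CPM in controls, 99.6, 89.5, 84.8, 98.3 and 94.4 CPM in 0 mg/kg tendons at 7 days and 122, 91.3, 153, 124 and 135 CPM at 21 days. All 27 repaired tendons (84.8 to 162 CPM) lay below the lowest control. The log2 fold change of Herpud1 was -1.31 ± 0.14 (SE, adjusted p = 8.42e-09) and -0.89 ± 0.14 (SE, adjusted p = 4.51e-06), 2.48-fold lower at 7 days, and it kept its sign with library size alone (-0.68 and -0.30), without control replicate 4 (-1.20 and -0.76) and with the muscle covariate (-0.97 and -0.67). The call of Herpud1 was lost with library size alone in 21D 6 mg/kg (-0.24, adjusted p = 0.0798), and with the muscle covariate in 7D 2 mg/kg (-0.32, adjusted p = 0.471) and 7D 6 mg/kg (-0.63, adjusted p = 0.126, edgeR).

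Atf4, the transcription factor of the PERK branch, had 409.7, 409 and 615 CPM in controls, 346, 303, 278, 309 and 282 CPM in 0 mg/kg tendons at 7 days and 392, 344, 353, 332 and 423 CPM at 21 days. It fell, with log2 fold changes of -0.66 ± 0.14 (SE, adjusted p = 1.70e-04) and -0.37 ± 0.14 (SE, adjusted p = 0.0207), but the 21-day groups overlapped, library size alone gave -0.02 and 0.22, and without control replicate 4, the highest control, the 21-day value was -0.20 (adjusted p = 0.225, edgeR). ATF4 is mainly controlled at translation, which these counts do not measure. Ddit3 (CHOP), a target of ATF4 linked to cell death, had 23.8, 25.3 and 61.6 CPM in controls, 20.5, 18.0, 16.6, 16.2 and 13.9 CPM in 0 mg/kg tendons at 7 days and 31.6, 22.2, 25.1, 29.9 and 26.1 CPM at 21 days. Ddit3 fell at 7 days, with a log2 fold change of -1.11 ± 0.23 (SE, adjusted p = 1.27e-04), and of -0.59 without control replicate 4, whose level was above that of the other two controls. At 21 days Ddit3 was at -0.45 ± 0.23 (SE, adjusted p = 0.0906), and at 0.09 without that control. Without it the calls of Ddit3 in 7D 2 mg/kg (-0.20, adjusted p = 0.398), 7D 6 mg/kg (-0.44, adjusted p = 0.0718) and 21D 2 mg/kg (-0.04, adjusted p = 0.858, edgeR) were also lost.

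Xbp1 had 123, 125 and 116 CPM in controls, 108, 128, 132, 128 and 128 CPM in 0 mg/kg tendons at 7 days and 104, 108, 159.6, 133 and 98.6 CPM at 21 days. The groups overlapped, and the 95% interval of its log2 fold change was -0.21 to 0.29 at 7 days and -0.26 to 0.24 at 21 days around 0.04 and -0.01, with 0.63 and 0.54 under library size alone. XBP1 is activated by splicing of its mRNA, which counts per gene cannot show. Atf6 had a log2 fold change of -0.31 ± 0.24 (SE, adjusted p = 0.239) and Sel1l, the scaffold of the degradation ligase, of 0.01 ± 0.15 (SE, adjusted p = 0.958) in 7D 0 mg/kg.

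The 10 genes whose promoter window held an ERSE or ERSE-II included both rises and a fall. In 7D 0 mg/kg tendons 7 of these 10 were higher, 1 was lower and 2 were not called, with a median change on the log2 scale of 0.51 and a range of -1.31 (Herpud1) to 1.30 (Creld2). Of the 24 windows with neither motif, 17 belonged to genes that were higher, 3 to genes that were lower and 4 to genes that were not called, with a median of 1.07 and a range of -1.11 (Ddit3) to 3.74 (P4ha3). The difference between these sets was not tested. Hspa5, Dnajb11, Dnajc3 and Xbp1, all with a motif, lay at 0.47, 0.21, 0.26 and 0.04.

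Genes of translocation and transport mostly rose. Of 11 measured, 9, 9, 9, 8, 8 and 9 rose in the 6 groups, and 1, Sec23a, fell, in 7D 2 mg/kg, at -0.40 ± 0.16 (SE, adjusted p = 0.0306), where library size alone gave 0.13. The median log2 fold change was 1.13 in 7D 0 mg/kg tendons and 0.73 in 21D 0 mg/kg tendons. Sec61a1, the pore of the translocon, had 155, 128 and 87.3 CPM in controls, 322, 392, 433, 401 and 342 CPM in 0 mg/kg tendons at 7 days and 271, 339, 378, 333 and 299 CPM at 21 days. No repaired tendon overlapped the controls, and Sec61a1 rose by 1.61 ± 0.17 (SE, adjusted p = 7.51e-09) and 1.39 ± 0.16 (SE, adjusted p = 1.35e-07). Sec61b, its beta subunit, had 64.5, 77.3 and 46.3 CPM in controls, 169, 157, 206, 201 and 170 CPM in 0 mg/kg tendons at 7 days and 127, 118, 144, 129.7 and 117 CPM at 21 days, and rose by 1.53 ± 0.17 (SE, adjusted p = 2.01e-08) and 1.02 ± 0.16 (SE, adjusted p = 8.14e-06). The gamma subunit was not called. Sec61g had 44.3, 47.3 and 71.3 CPM in controls and 45.6 to 98.5 CPM in repaired tendons, with a log2 fold change of 0.32 ± 0.20 (SE, adjusted p = 0.153) in 7D 0 mg/kg.

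Kdelr2, which returns escaped ER proteins from the Golgi, had 127, 110.3 and 77.4 CPM in controls, 244, 267, 285, 267 and 242 CPM in 0 mg/kg tendons at 7 days and 178, 187, 224, 193 and 182 CPM at 21 days. Kdelr2 rose by 1.31 ± 0.14 (SE, adjusted p = 1.02e-08) and 0.88 ± 0.13 (SE, adjusted p = 4.90e-06), and the other receptors by 1.19 (Kdelr3) and 0.58 (Kdelr1) at 7 days. The translocon-associated proteins Ssr1, Ssr2 and Ssr3 rose by 0.82, 1.13 and 0.36 at 7 days. At 21 days in 0 mg/kg tendons Ssr1 and Ssr2 remained higher (0.37 and 0.73), while Ssr3 was at 0.13 ± 0.09 (SE, adjusted p = 0.191). The 21-day call of Ssr1 was lost without control replicate 2 (0.31, adjusted p = 0.0726) and without control replicate 4 (0.31, adjusted p = 0.0693, edgeR). Of the COPII coat, in 0 mg/kg tendons at 7 days Sec24d was called and Sec23a was not. Sec24d, the cargo adaptor needed for procollagen export, had 96.0, 93.3 and 26.7 CPM in controls and rose by 1.23 ± 0.25 (SE, adjusted p = 1.34e-04), or by 0.78 without control replicate 4, the lowest. Sec23a had 115, 109 and 78.4 CPM in controls, 66.1, 90.2, 86.8, 89.2 and 87.2 CPM in 0 mg/kg tendons at 7 days and 71.8, 68.8, 104, 92.1 and 61.6 CPM at 21 days. Sec23a was at -0.27 ± 0.16 (SE, adjusted p = 0.124) and -0.34 ± 0.16 (SE, adjusted p = 0.0552), at -0.48 without control replicate 4 (adjusted p = 0.0143, edgeR) and at 0.30 with library size alone.

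**Figure D2:**
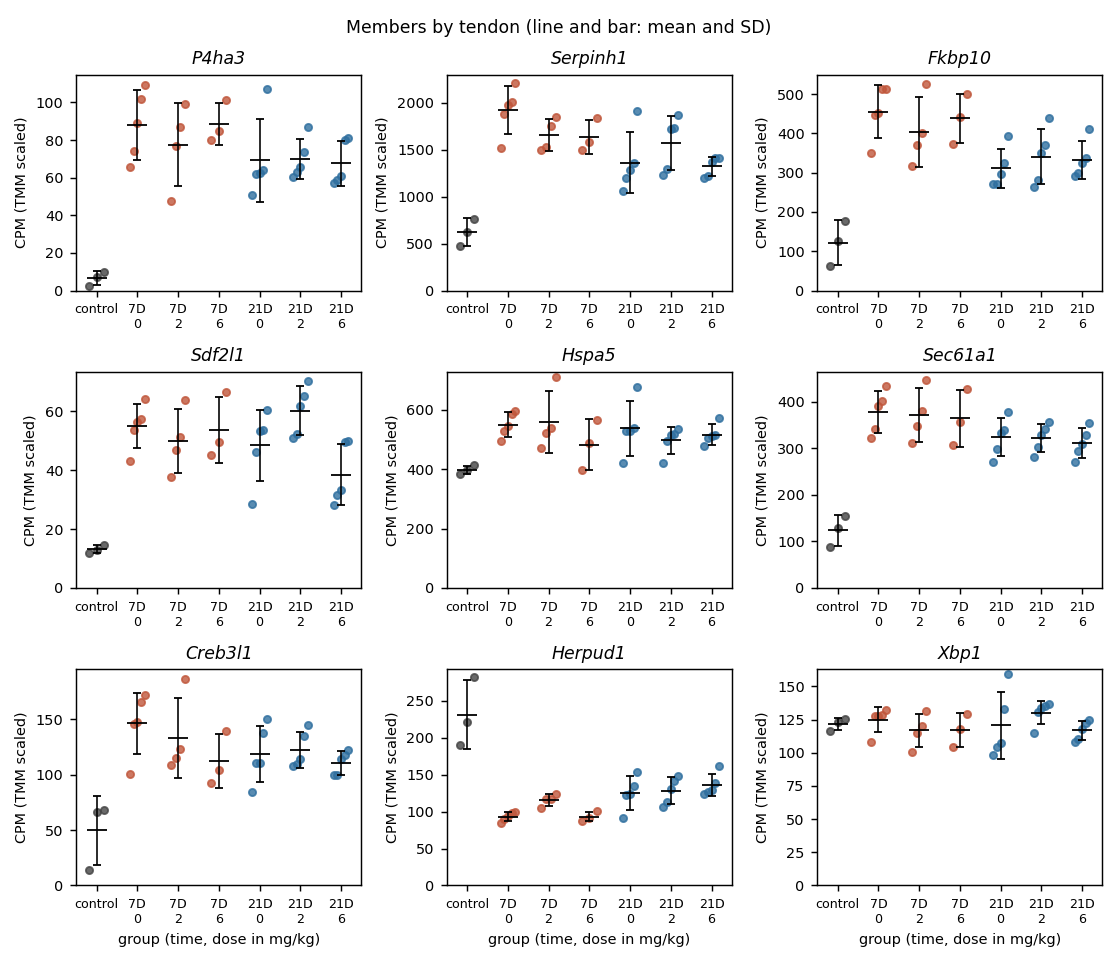
CPM (TMM scaled, linear axis from 0) of 9 genes in each of the 30 tendons by group, with the mean and SD. P4ha3, Serpinh1, Fkbp10, Sdf2l1, Sec61a1 and Creb3l1 have every repaired tendon above the controls, Herpud1 has every one below, and Xbp1 overlaps.

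Role medians were also taken tendon by tendon. As the median over the genes of a role of the log2 difference from the control mean, collagen folding ran from -0.37 to 0.36 in the 3 controls, from 1.12 to 1.69 in the 12 tendons at 7 days and from 0.73 to 1.40 in the 15 at 21 days. Translocation and transport ran from -0.34 to 0.18, from 0.84 to 1.37 and from 0.49 to 1.07. Chaperones and foldases ran from -0.18 to 0.14, from 0.65 to 0.99 and from 0.27 to 0.90. None of the repaired tendons overlapped the controls in these 3 roles. Stress regulators and degradation ran from -0.13 to 0.10 in controls, from -0.31 to 0.12 at 7 days and from -0.24 to 0.20 at 21 days, and overlapped throughout. The muscle share was lower and the summed share of the fibroblast list, weighted to collagen transcripts, higher than in controls in the same 27 tendons. Members of that list did not move together. Col3a1 had 3490 to 12300 CPM in controls and 42440 to 53380 CPM in 7D 0 mg/kg tendons, where Col6a1, Lum and Pdgfra were also higher. In the same order Mkx had 2.78 to 9.39 and 0.11 to 0.62 CPM, Fmod 772 to 3210 and 369 to 676 CPM, and Tnmd 147 to 364 and 46.2 to 135 CPM. Col1a1, Dcn, Scx and Thbs4 overlapped the controls.

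**Figure D3:**
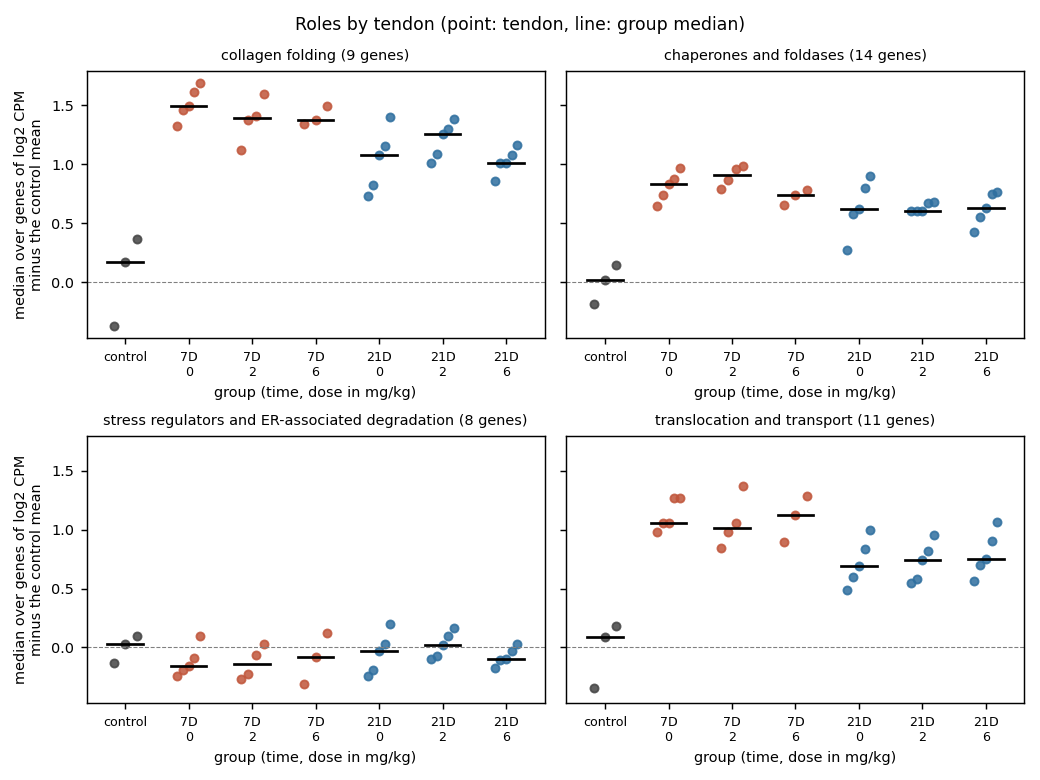
Median over the genes of each role of the log2 difference from the mean of the 3 control tendons, 1 point per tendon, by group, with a line at the group median. Collagen folding, chaperones and transport lie above the controls in all 27 repaired tendons, and the stress regulators overlap the controls.

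Further genes of the same pathways, from another list of 116 of which 103 were tested, gave 61 higher and 19 lower in 7D 0 mg/kg and 52 higher and 17 lower in 21D 0 mg/kg, with medians of 0.48 and 0.31. Of all tested genes 35.8% were higher and 35.6% lower in the first comparison, and 32.2% and 33.7% in the second. This list was also chosen with earlier results of these data known, so its counts are not independent support. In 7D 0 mg/kg, of 10 collagen-modifying enzymes 8 rose and 1 fell, with Colgalt1, a collagen galactosyltransferase, at 1.41 ± 0.13 (SE) and P3h2, a prolyl 3-hydroxylase, at -2.94 ± 0.38 (SE). Of 18 further folding and oxidation genes 14 rose and none fell, among them Erp29 (1.42 ± 0.14 (SE)) and Ppic (2.27 ± 0.24 (SE)). The COPII, COPI and cargo receptor list had 19 of 25 higher and 4 lower, and Sar1b, the GTPase that starts COPII assembly, was at -3.72 ± 0.28 (SE) and Mia2 at -0.95 ± 0.11 (SE). The translocon, signal peptidase and glycosylation list had 8 of 23 higher and 7 lower, near the shares of all genes, with Sec11a, a signal peptidase subunit, at 0.89 ± 0.09 (SE) and Sec61a2, the second pore gene, at -1.75 ± 0.13 (SE). Of 15 further stress sensors and regulators 6 rose and 4 fell, also near those shares. Chac1, a target of ATF4 that degrades glutathione, was at -4.10 ± 0.47 (SE) and Tmbim6, an ER membrane protein that restrains cell death, at -1.07 ± 0.10 (SE). Of 12 further degradation genes 6 rose and 3 fell, with Man1b1, a mannosidase, at 0.96 ± 0.09 (SE).

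Most of these genes lay slightly lower at 21 than at 7 days, and few passed the test. At 0 mg/kg 6 of the 42 genes fell and 1 rose, where 2.47% of all genes fell and 2.88% rose. At 2 mg/kg 6 fell and 0 rose (5.98% and 7.09% of all genes). At 6 mg/kg 3 fell and 2 rose (4.55% and 8.54%). In the order 0, 2 and 6 mg/kg, 19, 13 and 13 of the 42 had an unadjusted p under 0.05 in either direction (edgeR). Of all 12558 genes 2981, 3554 and 3405 did. The median change on the log2 scale of the 42 genes was -0.20, -0.14 and -0.14, against 0.0089, 0.0012 and 4e-04 for all genes. Pdia6, a disulfide isomerase, and Ssr1, the alpha subunit of the translocon-associated complex, fell at each of the 3 doses. Pdia6 had 283, 281, 326, 261 and 283 CPM in 0 mg/kg tendons at 7 days and 169.7, 230.3, 255, 215 and 193 CPM at 21 days, which did not overlap, with a log2 fold change of -0.43 ± 0.09 (SE, adjusted p = 0.00723). At 2 and 6 mg/kg it was -0.33 ± 0.09 (SE, adjusted p = 0.0206) and -0.34 ± 0.10 (SE, adjusted p = 0.0282). Ssr1 had 240.1, 232, 247, 218 and 213 CPM and 146, 177, 179, 167 and 169.6 CPM at 0 mg/kg, also without overlap, at -0.45 ± 0.11 (SE, adjusted p = 0.0166), and at -0.65 ± 0.11 (SE, adjusted p = 5.04e-04) and -0.38 ± 0.12 (SE, adjusted p = 0.0393) at the other doses.

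The other calls over time each appeared at 1 or 2 doses. P4hb fell at 0 mg/kg, at -0.45 ± 0.11 (SE, adjusted p = 0.0181), and at 6 mg/kg, at -0.39 ± 0.12 (SE, adjusted p = 0.0377), and P3h1 fell at 0 mg/kg, at -0.59 ± 0.16 (SE, adjusted p = 0.0332). Sec61b and Kdelr2 fell at 0 mg/kg (-0.51 and -0.44) and again at 2 mg/kg (-0.43 and -0.38). Canx, at -0.36 ± 0.10 (SE, adjusted p = 0.0199), and Ssr3, at -0.43 ± 0.08 (SE, adjusted p = 0.00108), fell at 2 mg/kg. Herpud1, which had fallen after repair, rose between 7 and 21 days at 0 mg/kg, at 0.42 ± 0.12 (SE, adjusted p = 0.0391), and at 6 mg/kg, at 0.55 ± 0.14 (SE, adjusted p = 0.0114), and Dnajb9 rose at 6 mg/kg, at 0.38 ± 0.12 (SE, adjusted p = 0.0391). Whether these time effects differ between doses is asked by the dose-by-time test.

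With the muscle covariate the median over the 42 genes was -0.15, 0.0075 and 0.0706 at 0, 2 and 6 mg/kg, so that its sign turned at the higher doses. The time effects were small and their number changed when single tendons were left out. A change of at least 1.5-fold was met by 0 higher and 1 lower, 0 and 1, and 0 and 0 genes at the 3 doses. The muscle share was up to 1.21% at 7 days and up to 9.23% at 21 days, and 4 of the 21D tendons (0 mg/kg replicates 1 and 5, 6 mg/kg replicates 1 and 2) were over 5%. Without these 4, none of the 42 genes was called at 0 or at 6 mg/kg, Pdia6 being at -0.30 (adjusted p = 0.110, edgeR) and Ssr1 at -0.40 (adjusted p = 0.140) at 0 mg/kg. That fit has fewer tendons, and its calls over all genes are not given here. Its median over the 42 genes was -0.0985 at 0 mg/kg and -0.0816 at 6 mg/kg, against 0.0183 and 0.0053 over all genes. With the muscle covariate the counts of higher and lower genes were 0 and 3, 3 and 0, and 0 and 0. Leaving out 1 tendon in turn gave 1 to 9 lower genes at 0 mg/kg, fewest without 7D replicate 3 or 21D replicate 1, 2 to 10 at 2 mg/kg, fewest without 7D replicate 5 and most without 7D replicate 4, and 0 to 4 at 6 mg/kg, with 0 without any 1 of the 7D tendons or 21D replicate 2. Of single calls, the rise of Herpud1 at 0 mg/kg was lost in 8 of 10 such fits and the fall of Ssr1 at 6 mg/kg in 6 of 8. The falls of Sec61b and Kdelr2 at 2 mg/kg were each lost in 7 of 9, and those of Sec61b and P3h1 at 0 mg/kg in 6 of 10. At 6 mg/kg P4hb was lost in 6 of 8, and Pdia6 and Dnajb9 in 5 of 8. Pdia6 at 0 mg/kg and Ssr1 and Ssr3 at 2 mg/kg were lost in none.

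**Figure D4:**
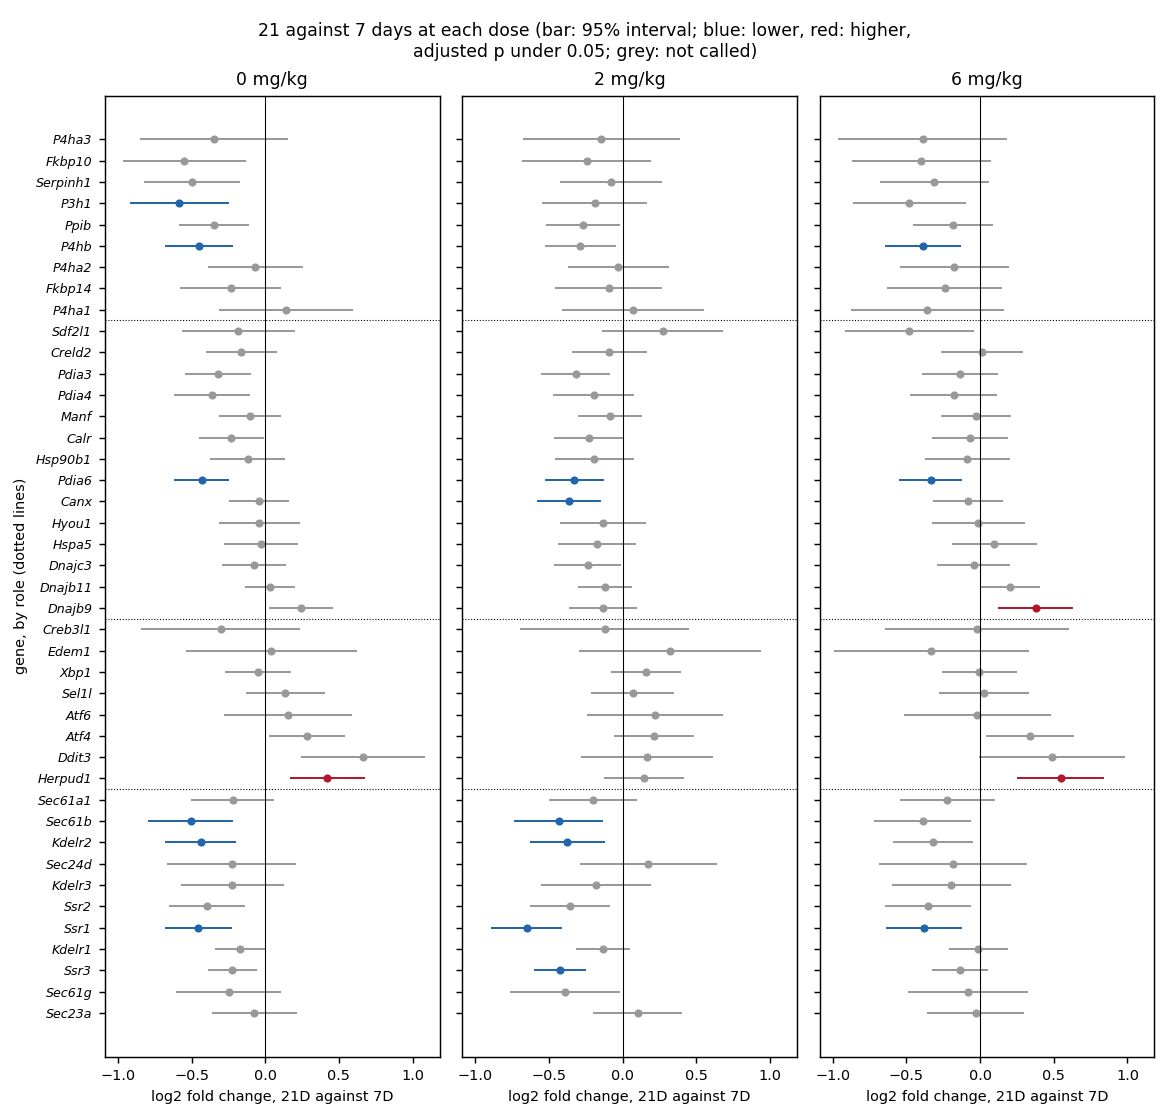
Log2 fold change of each of the 42 genes at 21 against 7 days with its 95% interval, 1 panel per dose, with calls at an adjusted p under 0.05 marked. Most estimates lie below 0, most intervals cross it, and Pdia6 and Ssr1 are called at all 3 doses.

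The dose of GSK2894631A was compared within each time. By edgeR 0 of the 42 genes differed across the 3 doses at 7 days, where 2.05% of all genes did, and 0 at 21 days, where 0% did. The dose-by-time test gave 0 of 42, against 0.39% of all genes. At an unadjusted p under 0.05 the counts were 3, 3 and 2 of 42, against 1576, 1366 and 985 of all 12558 genes. DESeq2 called 1, 0 and 0 of the 42 (4, 3 and 5 unadjusted), the call being Ssr3 at 7 days. Of all genes it called 572, 138 and 181 (1910, 1786 and 1255 unadjusted). By limma-voom 0, 0 and 0 of the 42 were called (4, 3 and 2 unadjusted), against 8, 0 and 0 of all genes (1315, 1474 and 778 unadjusted). With the muscle covariate edgeR called 1, 0 and 2 of the 42, for which the counts over all genes are not given here.

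The gene nearest to a call across doses was Ssr3, the gamma subunit of the translocon-associated complex. Ssr3 had 318, 314, 313, 289 and 279 CPM at 7 days with 0 mg/kg, 369.5, 344, 323 and 409.7 CPM with 2 mg/kg and 311, 374 and 335 CPM with 6 mg/kg. The 2 mg/kg tendons were the highest group, at 0.26 ± 0.08 (SE, adjusted p = 0.0920) against 0 mg/kg, and the adjusted p of the test over doses was 0.216 (edgeR). At 21 days Ssr3 had 241, 258, 267, 272 and 258 CPM at 0 mg/kg, 278, 259.9, 291, 256 and 262 CPM at 2 mg/kg and 312, 280.5, 341, 305 and 307 CPM at 6 mg/kg, with the 6 mg/kg group the highest and an adjusted p of 0.292 (edgeR). Sdf2l1 at 21 days had 61.9, 65.2, 51.0, 70.4 and 52.4 CPM at 2 mg/kg and 33.3, 28.2, 49.9, 31.6 and 49.5 CPM at 6 mg/kg, a difference of -0.64 ± 0.18 (SE, adjusted p = 0.152). Dnajb9 had 54.9, 55.7, 49.3, 48.0 and 56.2 CPM and 74.0, 64.4, 74.0, 62.0 and 58.4 CPM in these groups, a difference of 0.33 ± 0.10 (SE, adjusted p = 0.176), and the smallest unadjusted p of the dose-by-time test (adjusted p = 0.380, edgeR).

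The intervals show how large a dose effect these samples could miss. Against 0 mg/kg at 7 days, estimates ran from -0.25 (P3h1) to 0.38 (Ddit3) at 2 mg/kg and from -0.38 (Creb3l1) to 0.19 (P4ha1) at 6 mg/kg. The 95% interval lay within a 1.5-fold change for 35 and 37 of the 42 genes and within a 2-fold change for 42 and 41. At 21 days estimates ran from -0.14 (Dnajb9) to 0.31 (Sdf2l1) at 2 mg/kg and from -0.37 (Edem1) to 0.29 (Sec61g) at 6 mg/kg, with 39 and 37 intervals within 1.5-fold and 42 and 42 within 2-fold. Over the 4 comparisons the interval limits reached -1.01 and 0.82. The test does not show that the doses act alike.

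**Figure D5:**
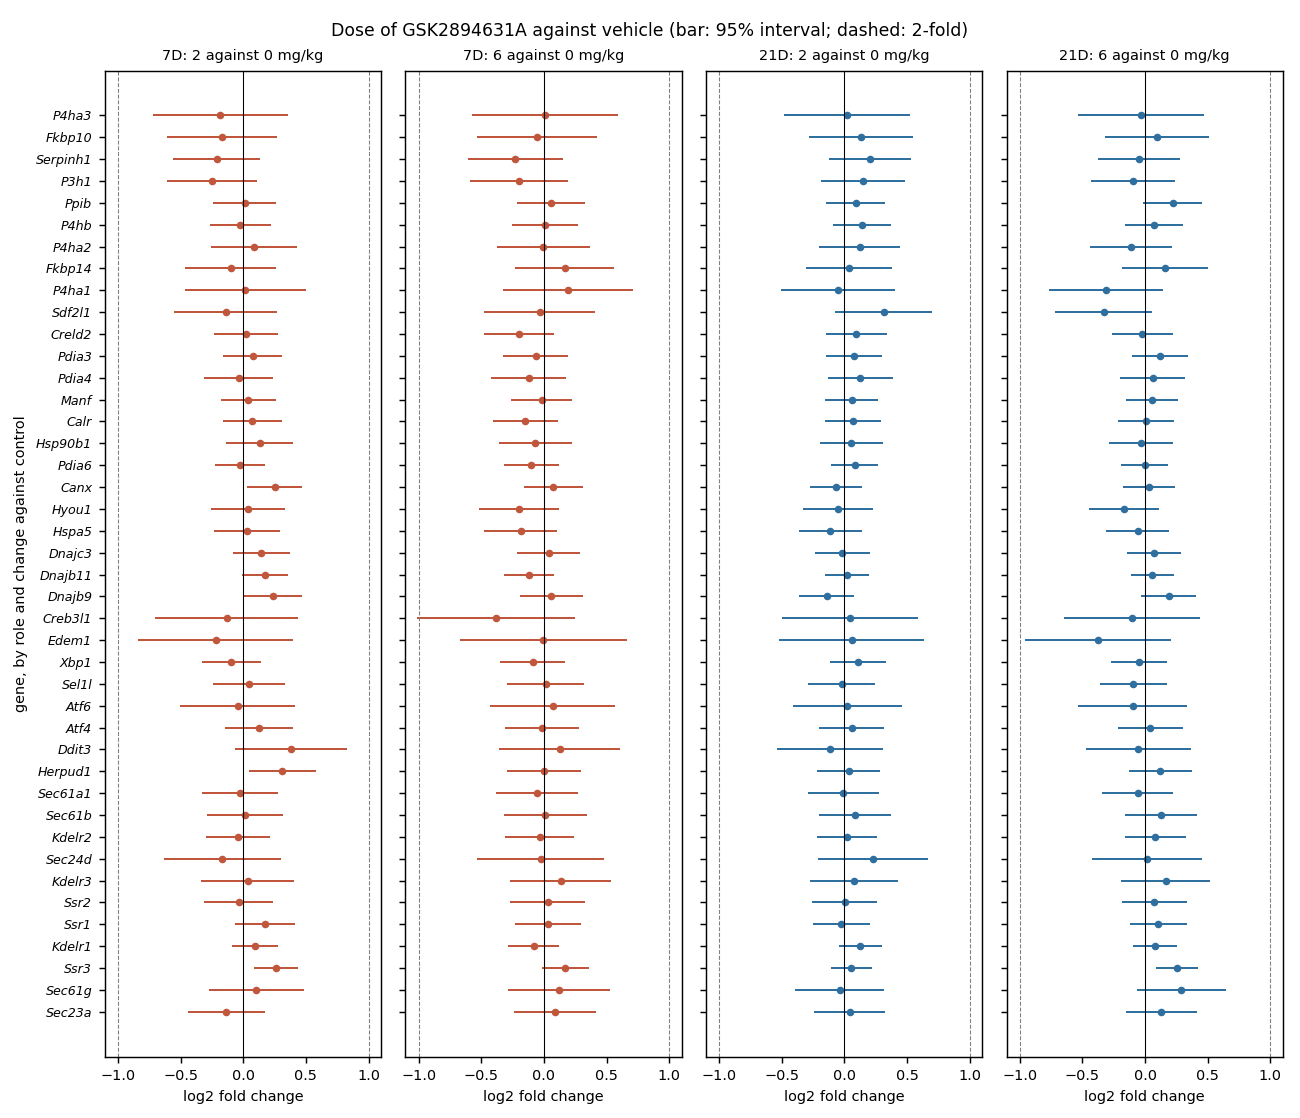
Log2 difference of the 2 and 6 mg/kg groups from 0 mg/kg at 7 and at 21 days for each of the 42 genes, with 95% intervals and dashed lines at a 2-fold change. Estimates lie between -0.38 and 0.38, and all but 1 of the intervals stay inside the dashed lines.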

How the data were processed

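RNA of the right plantaris tendon of 30 rats was sequenced as 50 bp single-end TruSeq libraries on an Illumina HiSeq system. The authors trimmed reads with fastp, aligned them with STAR to the rn6 genome with Ensembl release 95 annotation, removed samples on read quality, and deposited raw counts per gene. A deposited table of their own edgeR comparisons (log2 fold changes, log2 CPM, p-values, false discovery rates and gene widths) was not used. Groups followed the sample labels, which give 3 tendons in 7D 6 mg/kg, 1 fewer than the study's account of removals leaves. The study also used edgeR and a low-expression filter. Its scaling is not given in the sources used here. For 21D 0 mg/kg against control, 4042 genes were called higher and 4232 lower here with no fold minimum. The study reported far fewer there, with a 1.5-fold minimum added. The reason for this difference was not tested. Here, with R 4.3.3 and edgeR 4.0.16, genes were kept where 1 or more groups averaged 3 CPM or above (566 of 13124 removed, 12558 kept), TMM factors scaled the libraries, and 1 quasi-likelihood model with a mean per group was fitted to all 30 tendons. Contrasts were each repaired group against control, 21 against 7 days within a dose, doses within a time, and dose by time, with Benjamini-Hochberg adjustment over all genes and calls at an adjusted p under 0.05. DESeq2 1.42.0, limma-voom (limma 3.58.1), other scalings and filters, the replicate block, a muscle covariate and leaving out tendons were alternatives. The genes, role lists and further lists were chosen with earlier results of these data known. Values are given for the 3 called genes of each role with the largest absolute log2 fold change in 7D 0 mg/kg, the lowest one, those called across doses, and the 2 of each role with the smallest adjusted p over time; other values were chosen after they were seen. The value of 1 gene is not reported here.

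No 2 libraries of a group agreed within counting noise (lowest chi-square per gene 29.58 over 52 pairs). A count of 3, the floor used, was worth 0.0601 to 0.242 CPM, which covers counting error only. P-values measure the spread between tendons. Gene lengths were not used, so levels are not compared between genes, and reads shared with near-identical copies are uncertain. Promoter windows are RefSeq GRCr8 and were matched by symbol, while counts used rn6, so coordinates are those of the windows alone.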

Additional observations from a re-analysis of the deposited data

Results flagged for a closer look

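The 21 genes named by rule were examined in the 5 groups of 4 or 5 tendons, and the other 21 were not. In 3 of the 105 combinations of gene and group, 1 tendon lay far from the others by Dixon's test, and chance alone flags about 1 in 20. P4ha3 in 21D 0 mg/kg replicate 3 was at 107 CPM, where the other 4 tendons were at 50.5 to 63.9 CPM. Canx in 21D 2 mg/kg replicate 4 was at 572 CPM, where the others were at 536 to 544 CPM. Sec23a in 7D 0 mg/kg replicate 1 was at 66.1 CPM, where the others were at 86.8 to 90.2 CPM.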

How the results depend on the processing

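Counts of higher genes against control, with the number lower after each, are given in the order 7D 0, 2 and 6 mg/kg, then 21D 0, 2 and 6 mg/kg. Leaving out 1 tendon in turn gave 30 to 32, 31 to 33, 28 to 31, 26 to 30, 26 to 30 and 27 to 31 higher, and 4 to 6, 4 to 5, 4 to 4, 3 to 4, 2 to 4 and 1 to 4 lower. The count of lower genes in 21D 2 mg/kg was 2 without 21D 2 mg/kg replicate 1. In 21D 6 mg/kg it was 4 without control replicate 2, control replicate 3 or 21D 6 mg/kg replicate 1, and 1 without 21D 6 mg/kg replicate 2 or 4 or without the 4 tendons over 5% muscle share. The muscle covariate left 9 and 10 higher in 7D 2 and 6 mg/kg, and 1, 0, 1 and 2 lower in 7D 2, 7D 6, 21D 0 and 21D 2 mg/kg. Library size alone left 1, 1, 1, 1, 1 and 0 lower. A 1.5-fold minimum left 2, 1, 2 and 1 lower in 7D 2, 21D 0, 21D 2 and 21D 6 mg/kg. With only the groups compared 2, 2 and 1 were lower in 7D 2, 21D 2 and 21D 6 mg/kg. In 21D 6 mg/kg RLE scaling and DESeq2 gave 4 lower, and no filter or filterByExpr 1.

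For 21 against 7 days, leaving out 1 tendon gave 0 to 2, 0 to 0 and 0 to 2 higher, and 1 to 9, 2 to 10 and 0 to 4 lower, at 0, 2 and 6 mg/kg. At 0 mg/kg higher genes were 2 with library size alone, DESeq2 or limma-voom and 0 with the muscle covariate, a 1.5-fold minimum or without the 4 tendons over 5% muscle. Lower genes there were 13 with DESeq2, 3 with only the groups compared or the muscle covariate, 1 at 1.5-fold and 0 without those 4 tendons. At 2 mg/kg the muscle covariate gave 3 higher and 0 lower, and the 1.5-fold minimum 1 lower. At 6 mg/kg higher genes were 1 with library size alone, only the groups compared or the replicate block, and 0 with the muscle covariate, at 1.5-fold or without those 4 tendons, under which lower genes were also 0. Across doses 0 genes were called in each leave-one-out fit (0 to 0). At 7 days DESeq2 and the muscle covariate each called 1, and the muscle covariate called 2 in the dose-by-time test. The cause of these changes was not tested.

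Among gene values that were reversed, library size alone gave Dnajb9 0.13 (7D 2 mg/kg), 0.13 (21D 0) and 0.27 (21D 6), Xbp1 0.50, 0.53, 0.54 and 0.44 (7D 2, 7D 6, 21D 0, 21D 6), Atf4 0.064, 0.22, 0.25 and 0.21 (7D 2, 21D 0, 21D 2, 21D 6), Ddit3 0.047 (21D 2) and Sec23a 0.13 (7D 2). The muscle covariate gave Dnajb9 0.0017 and Ddit3 0.014 (7D 2), Edem1 -0.37 and -0.13 (7D 2, 7D 6), Dnajc3 -0.088 (7D 6), and over time Canx 0.0046 (2 mg/kg) and P4hb 0.080 (6 mg/kg).

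Same-numbered tendons of different groups did not deviate together (correlation of deviations -0.701 to 0.681, median 0.007 over 76 pairs, against a median of 0.009 for different numbers), so the replicate numbers were not taken as pairs. The replicate block changed 1 count of called genes by over 1.5 times, the 1 higher gene at 6 mg/kg given above.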
